A study of Ciona robusta with 133 samples.

Results

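At the 6-row neural plate stage of the ascidian Ciona robusta, 60 of 15287 gene models formed the set described here: genes at a like level in the neural plate cells of 2 separate lineages and lower in the notochord and epidermis cells beside them. The members were chosen from measured values. Each library's counts were scaled to a total of 1000000, a unit called CPM, and the CPM values were averaged over the libraries of each cell type. A gene qualified when its means in the A-line cells A9.13+A9.14 and the a-line cells a9.37+a9.38, with 1 CPM added, lay within 2-fold of each other, which 13422 gene models did. Genes were then ranked by the log2 ratio of the lower of these neural means to the higher of the means in A9.9+A9.10 and a9.43+a9.44, again with 1 CPM added, and the top 60 were taken. All differences among these 4 groups at the neural plate are therefore descriptions. The tests of the members below use the earlier stages, which the ranking did not use.

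Ascidian embryos cleave in a fixed pattern, so a cell's name gives its ancestry. As background from the lineage literature, A-line cells are the anterior vegetal descendants, whose A7.4 and A8.7 branch forms posterior neural plate and nerve cord, whose A7.3 and A8.5 branch forms notochord, and whose A6.1 and A7.2 branch forms endoderm. The a-line cells are anterior animal descendants, whose a6.5, a7.10 and a8.19 branch forms the anterior neural plate and whose a6.6, a7.11 and a8.22 branch forms epidermis. In ascidians the a-line neural branch is known to be induced by FGF from vegetal neighbours, whereas the A-line neural cells separate from notochord when FGF signalling is lost on their side of a division. The study's title concerns early similarities between these neural lineages. The deposited table gives genes only as KH identifiers, and the reference table used here pairs none of them with a symbol, so members carry no gene name or role and the word neural describes the cells, not a known function of the genes. For the same reason the cell labels were not checked against marker genes.

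The data were 133 RNA-seq libraries, each from a hand-dissected cell of an embryo at the 16-, 32-, 64- or 112-cell stage or the neural plate, in 19 cell types. The labels name no treatment, strain or genotype. There were 7 libraries of A5.1 and 7 of a5.3 at 16 cells; 9 of A6.2, 9 of A6.1, 7 of a6.5 and 7 of a6.6 at 32 cells; 7 each of A7.4, A7.3 and A7.2, 8 of a7.10 and 6 of a7.11 at 64 cells; 7 each of A8.7, A8.5, a8.19 and a8.22 at 112 cells; and 6 of each neural plate group. Left and right cells of an embryo came from the same animal, so counts were summed within an embryo and cell type, giving 87 embryo samples. Embryos are the replicates, with 2 embryos for A9.13+A9.14, 3 for each other neural plate group and 4 to 8 for each earlier group. The labels do not say when each embryo was collected or whether an equal embryo number in the A line and the a line after 16 cells marks the same embryo, so stage and collection cannot be told apart, nor lineage and collection from 32 cells on.

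Library totals ran from 1452103 to 16599891 counts with a median of 7546701, so that 1 read stood for between 0.0602 and 0.689 CPM. The A6.1 library of embryo 5 stood apart, with 7137 genes detected against at least 9667 in every other library, and was left out of the fits at 32 cells and of the A-line steps. For several members the A7.4 cells of embryo 3 also differed from the other A7.4 embryos, as given below. CPM is a share of a library, so a change in the amount of RNA per cell cannot be seen in it. Gene lengths were not used here, so levels are compared between cells and not between genes. The identifiers of 44 members began with KH.C, of 11 with KH.L and of 5 with KH.S, which is 73.3%, 18.3% and 8.33% of the set against 68.7%, 19.5% and 11.8% of all gene models.

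KH.C7.140 headed the ranking with a log2 ratio of 5.95. Its CPM at the neural plate was 1414 and 1660 in the A9.13+A9.14 embryos and 1044, 1453 and 633 in the a9.37+a9.38 embryos. In the A9.9+A9.10 embryos it was 25.6, 15.2 and 24.4, and in the a9.43+a9.44 embryos 9.39, 4.30 and 7.06. All 5 neural embryos lay far above all 6 others, with no overlap in any of the 24 libraries. KH.C4.506, with a log2 ratio of 4.78, reached 470 and 618 CPM in A9.13+A9.14, with 435, 1106 and 205 CPM in a9.37+a9.38. Its partner embryos held 0.0602, 16.96 and 0.301 CPM in A9.9+A9.10 and 6.88, 0.955 and 0.160 CPM in a9.43+a9.44. The neural embryos of KH.C4.506 again stood clear of the partners, although the a-line neural embryos spread over more than 5-fold among themselves.

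KH.C6.128 and KH.C14.33 were also high on both neural sides, but from a partner level above 0. KH.C6.128 measured 468 and 540 CPM in A9.13+A9.14, with 502, 929 and 578 CPM in a9.37+a9.38. The partners of KH.C6.128 measured 52.8, 93.2 and 146 CPM in A9.9+A9.10 and 109, 104 and 109 CPM in a9.43+a9.44. No partner embryo of KH.C6.128 came near its neural embryos. KH.C14.33 measured 136 and 267 CPM in A9.13+A9.14, with 278, 511 and 364 CPM in a9.37+a9.38, against 6.51, 19.6 and 2.71 CPM in A9.9+A9.10 and 42.1, 64.5 and 74.8 CPM in a9.43+a9.44. Its groups did not overlap, and its a-line partner was the higher of the partners in every embryo.

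**Figure D1:**
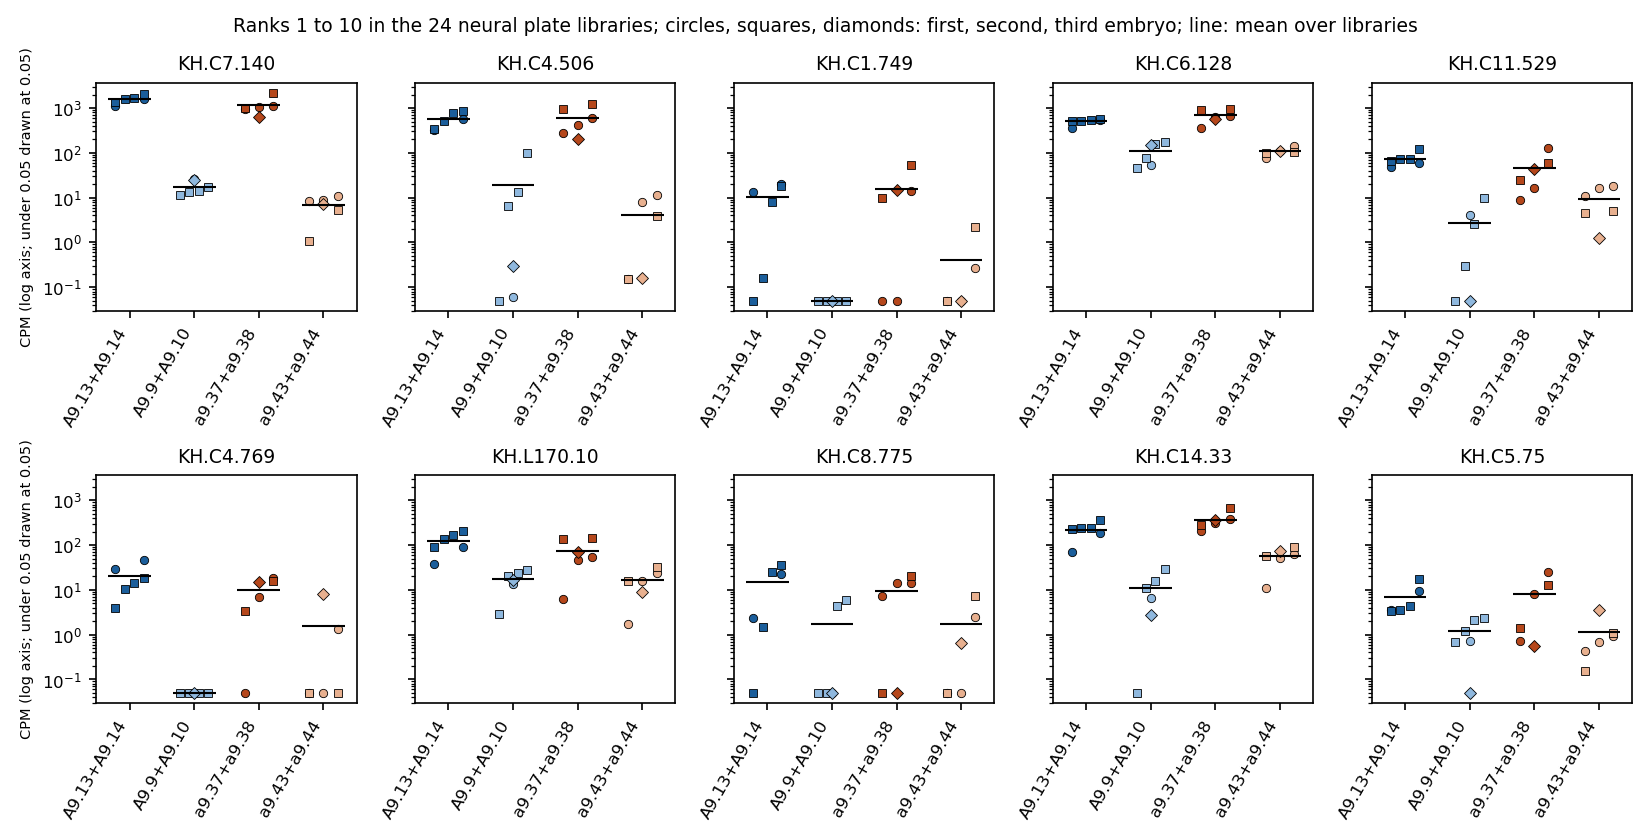
CPM, on a log axis, of the members at ranks 1 to 10 in each of the 24 neural plate libraries, by cell type on the horizontal axis, with embryos as marker shapes and the mean over libraries as a line. KH.C7.140, KH.C4.506, KH.C6.128 and KH.C14.33 keep nearly all neural libraries above the partner libraries, whereas KH.C1.749, KH.C4.769 and KH.C8.775 are at 0 in some neural libraries.

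The other members among the top 10 were lower or more scattered. KH.L170.10 measured 67.7 and 148 CPM in A9.13+A9.14, with 28.7, 139 and 68.3 CPM in a9.37+a9.38, and at most 20.9 CPM in A9.9+A9.10 and 28.3 CPM in a9.43+a9.44. Its lowest neural embryo therefore lay just above its highest partner embryo. KH.C11.529 measured 54.4 and 83.8 CPM in A9.13+A9.14, with 69.4, 38.0 and 43.4 CPM in a9.37+a9.38, with no more than 4.16 CPM in A9.9+A9.10 and 15.4 CPM in a9.43+a9.44. KH.C1.749 measured 17.5 and 6.37 CPM in A9.13+A9.14, with 3.95, 36.9 and 14.5 CPM in a9.37+a9.38, against no read in A9.9+A9.10 and at most 0.478 CPM in a9.43+a9.44. KH.C11.529 and KH.C1.749 thus kept neural and partner embryos apart. KH.C4.769 measured 38.8 and 11.9 CPM in A9.13+A9.14, with 6.05, 8.36 and 14.7 CPM in a9.37+a9.38, and KH.C8.775 measured 10.7 and 15.5 CPM against 10.6, 8.17 and 0 CPM. KH.C5.75 measured 6.97 and 7.29 CPM in A9.13+A9.14, with 8.03, 8.36 and 0.564 CPM in a9.37+a9.38. For KH.C4.769, KH.C8.775 and KH.C5.75, the a-line neural embryos overlapped with those of a9.43+a9.44, which reached 8.02, 1.55 and 3.53 CPM.

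The 60 members were unequal in weight. The lower of the neural means was at least 100 CPM in 7 members, at least 10 CPM in 25 and at least 5 CPM in 38, and it was under 5 CPM in 22. A count was present in all 12 neural libraries for 20 members and in at most 6 of them for 16 members. In 30 members more than 50% of a neural group's summed CPM came from 1 library, and 21 of these 30 had a lower neural mean under 5 CPM. The mean was higher in A9.13+A9.14 for 23 members and in a9.37+a9.38 for 37, and the higher partner was A9.9+A9.10 for 30. The set therefore held a small group of well-measured genes and a long tail of sparse ones.

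Every neural embryo lay above every partner embryo of both lineages in 15 members, 12 of them with a lower neural mean of at least 10 CPM. Over all genes this pattern held for 0.346% of 15043, but the ranking favours it, so nothing is read from that count. In the tests across all genes, 4 members were higher in A9.13+A9.14 than in A9.9+A9.10, where 0.101% of all genes were, and 6 members were higher in a9.37+a9.38 than in a9.43+a9.44, where 0.313% of all genes were. Of A9.13+A9.14 against a9.37+a9.38, 0 members and 0.110% of all genes passed. These counts describe the selection, which used the same contrasts.

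At the end of the list, KH.L71.9, KH.C10.441 and KH.C9.692 had log2 ratios of 1.07, 1.06 and 1.05 at ranks 58 to 60. The next genes outside, KH.C8.576, KH.S461.7 and KH.S346.6, had 1.05, 1.05 and 1.04. KH.L71.9 was well measured, with 76.8 and 46.0 CPM in A9.13+A9.14, with 131, 117 and 67.5 CPM in a9.37+a9.38, but its A9.9+A9.10 embryos held 106, 13.5 and 16.9 CPM. KH.C8.576 just outside held 0 and 3.76 CPM in A9.13+A9.14, with 0, 0 and 26.1 CPM in a9.37+a9.38. There was thus no gap in the ranking at rank 60. Membership of the list moved with small choices, near its head as well as in its tail. Averaging over embryos in place of libraries kept 38 of the 60 members, and adding 5 CPM in place of 1 kept 37. Leaving out 1 embryo label of a lineage kept between 27 and 47. Under all 11 such settings 6 members stayed in the list, namely KH.C7.140, KH.C4.506, KH.C6.128, KH.C5.75, KH.L18.113 and KH.C4.90. KH.C1.749 (rank 3) and KH.C14.33 (rank 9) stayed under 9 of the 11 settings. KH.C4.769 (rank 6) stayed under 7 and KH.S816.1 (rank 24) under 8.

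At 112 cells, a stage the ranking did not use, 3 of the 50 members tested were higher in the neural cell A8.7 than in the notochord cell A8.5, against 0.150% of 11334 genes. These were KH.C7.140, KH.C6.128 and KH.L18.113. Of the 50 members tested in the a line, 2 were higher in a8.19 than in the epidermis cell a8.22, against 0.106% of all genes, namely KH.S816.1 and KH.C14.33. By edgeR no member was lower in either neural cell, against 0.185% and 0.0441% of all genes. The median log2 fold change of the members tested was 0.72 in the A line and 0.98 in the a line, with medians over all genes of 0.01 and 0.01. By edgeR no gene of the table passed the adjusted threshold in both lineages at this stage. DESeq2 called 7 and 9 members in these comparisons, and 5 of them in both lineages, namely KH.C7.140, KH.C6.128, KH.C4.769, KH.C14.33 and KH.L18.113. The share of all genes under DESeq2 is not given here, so these counts have no background. The 9 included KH.C8.424, with a fitted log2 fold change of 21.51 from a mean of 1.324 CPM in a8.19 and 0 in a8.22. By edgeR the adjusted p of KH.C8.424 was 0.732. KH.C4.769 was also near the floor in the a line, at means of 3.802 CPM in a8.19 and 0 in a8.22. Its edgeR adjusted p was 0.394 in the A line and 0.495 in the a line. With the embryo as a block edgeR called 2 and 0, so whether a member passed in both lineages depended on the tool.

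KH.C7.140 in A8.7 measured 1325, 1438, 1058, 1744 and 1585 CPM, and in A8.5 it measured 26.0, 27.7, 11.9, 18.9 and 130 CPM. The A-line groups did not overlap. By edgeR's quasi-likelihood test its log2 fold change was 5.07 ± 0.61 (SE, n = 5 embryos per cell type) with a Benjamini-Hochberg adjusted p of 0.000276, and 0.0138 with the embryo as a block. In a8.19 the same gene measured 427, 282, 457 and 218 CPM and in a8.22 it measured 53.6, 22.6, 45.9 and 141 CPM. The a-line groups of KH.C7.140 did not overlap either, but the log2 fold change of 2.40 ± 0.61 (SE, n = 4 embryos per cell type) had an adjusted p of 0.251 by the same test and of 0.0188 by DESeq2. The difference between the lineages' fold changes, 2.67 ± 0.79 on the log2 scale, had an adjusted p of 0.256.

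KH.C6.128 in A8.7 measured 207, 228, 217, 210 and 193 CPM, and in A8.5 it measured 55.6, 15.4, 60.4, 32.2 and 81.7 CPM. The narrow A8.7 group lay above every A8.5 embryo, with a log2 fold change of 2.12 ± 0.36 and an adjusted p of 0.00756 by edgeR. That call was lost without A-line embryo 6, at an adjusted p of 0.0541, and with the embryo as a block, at 0.128. KH.L18.113 measured 296, 292, 353, 189 and 214 CPM in A8.7 and 113, 124, 149, 47.0 and 125 CPM in A8.5. Its groups did not overlap and its log2 fold change was 1.28 ± 0.23 with an adjusted p of 0.0134 by edgeR. For KH.L18.113 the call was lost without A-line embryo 2 or 3, where the adjusted p reached 0.0858, and was 0.0835 with the embryo block. These genes had the same sign in the a line, with log2 fold changes of 1.58 ± 0.39 for KH.C6.128 and 1.02 ± 0.26 for KH.L18.113 and edgeR adjusted p-values of 0.234 and 0.249. DESeq2 called both there, at adjusted p-values of 0.00797 and 0.0165.

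KH.S816.1 in a8.19 measured 162, 204, 187 and 152 CPM, and in a8.22 it measured 4.08, 0, 0 and 4.43 CPM. The groups lay far apart, with a log2 fold change of 6.39 ± 0.84 and an adjusted p of 0.000330 by edgeR. In the A line KH.S816.1 measured 176, 169, 308, 159 and 201 CPM in A8.7 but also 121, 96.0, 77.3, 104 and 121 CPM in A8.5. The A-line notochord cell therefore held this RNA too, and the A-line log2 fold change was 0.98 ± 0.58 with an adjusted p of 0.906. The enrichment differed between lineages by −5.42 ± 0.95 on the log2 scale, A line minus a line, with an adjusted p of 0.00905 by edgeR. It was the only member to pass that test, which 0.406% of all genes passed. With the embryo as a block the a-line call had an adjusted p of 0.135.

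KH.C14.33 in a8.19 measured 133, 185, 162 and 188 CPM and in a8.22 it measured 9.18, 1.20, 11.1 and 0 CPM. Its a-line log2 fold change was 4.93 ± 0.79 with an adjusted p of 0.00444 by edgeR, which became 0.0502 without a-line embryo 2 and 0.180 with the embryo block. In A8.7 KH.C14.33 measured 117, 167, 166, 131 and 154 CPM and in A8.5 it measured 42.1, 12.7, 17.4, 13.2 and 21.6 CPM. The A-line groups did not overlap, with a log2 fold change of 2.78 ± 0.64 and an adjusted p of 0.0828 by edgeR, or 0.0471 with the embryo block and 0.000446 by DESeq2. KH.C14.33 was thus high in both neural cells, while the edgeR call in each lineage depended on whether the embryo was a block.

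**Figure D2:**
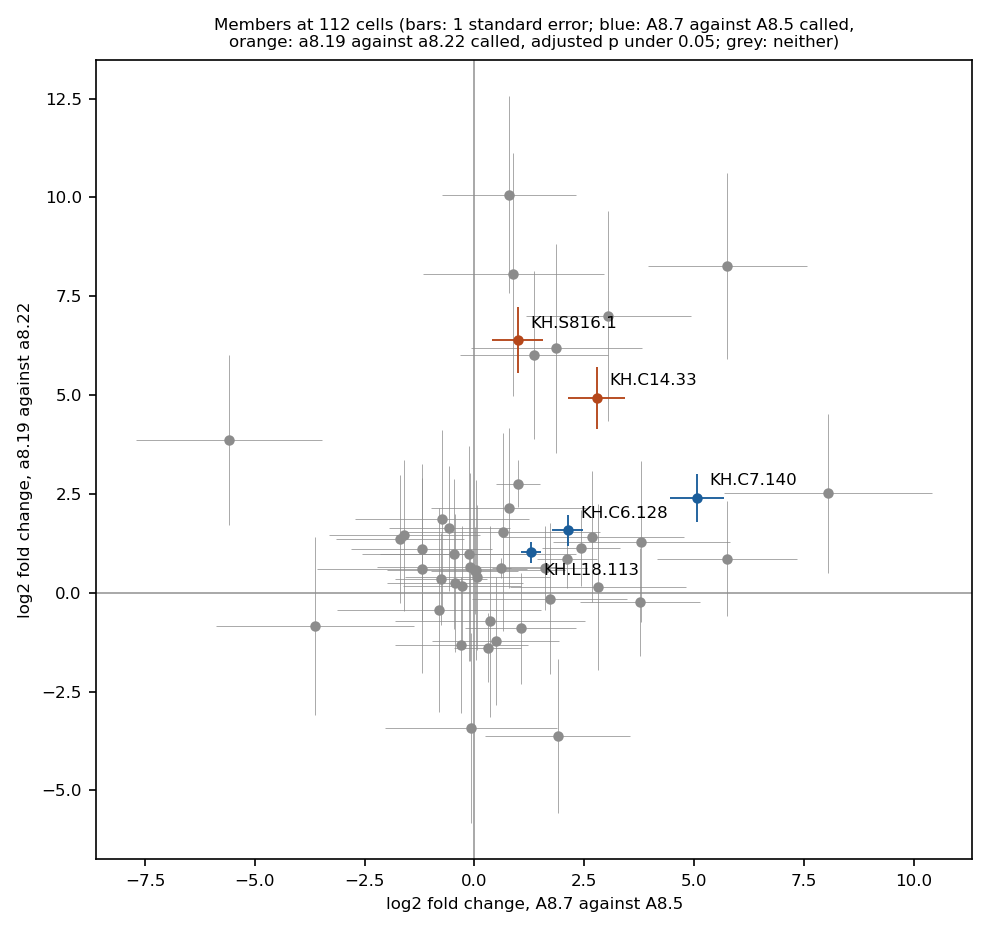
Log2 fold changes of the 50 members tested at 112 cells, A8.7 against A8.5 on the horizontal axis and a8.19 against a8.22 on the vertical axis, with bars of 1 standard error. KH.C7.140, KH.C6.128 and KH.L18.113 (blue) passed in the A line, KH.S816.1 and KH.C14.33 (orange) in the a line, and all 5 lie above 0 on both axes.

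Counting embryos in place of using a model, every A8.7 embryo lay above every A8.5 embryo for 10 of the 60 members, against 0.545% of all genes, and every a8.19 embryo lay above every a8.22 embryo for 12, against 1.94% of all genes. The opposite order occurred for 0 members in either lineage, against 0.651% and 1.70% of all genes. In both lineages at once the neural embryos lay above the partner embryos for 6 members, and for 14 genes (0.0931%) of the whole table. The 6 were KH.C7.140, KH.C6.128, KH.C14.33, KH.L18.113, KH.S816.1 and KH.C7.523. KH.C7.523 measured 37.2, 80.3, 65.1, 45.8 and 47.9 CPM in A8.7 against 20.5, 22.6, 0, 0 and 8.36 CPM in A8.5, and 46.2, 79.3, 61.2 and 61.6 CPM in a8.19 against 36.0, 21.4, 24.9 and 30.4 CPM in a8.22. KH.C4.506 was apart in the A line, at 112, 88.3, 108, 80.7 and 194 CPM in A8.7 against at most 10.6 CPM in A8.5, while a8.19 held 21.5, 8.02, 5.38 and 0 CPM and overlapped with a8.22, which held up to 10.6 CPM.

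The neural cells of the lineages were also compared with each other. At 112 cells 0 of 50 members passed between A8.7 and a8.19 by edgeR, against 0.538% of all genes, with 6 members at an unadjusted p under 0.05 and 2 called by DESeq2. The share of all genes under DESeq2 is not given here either. For KH.C7.140 the log2 fold change was 2.07 ± 0.58 with an adjusted p of 0.130, and for KH.C4.506 it was 3.76 ± 1.58 with 0.359, so neither passed; DESeq2 called KH.C7.140, at 0.0270. KH.C14.33, KH.L18.113 and KH.C4.90 had log2 fold changes of −0.16 ± 0.63, −0.17 ± 0.24 and −0.04 ± 0.24 between A8.7 and a8.19. At 64 cells 4 members were higher and 1 lower in A7.4 than in a7.10, against 6.82% and 3.86% of all genes, and at 32 cells 5 were higher and 1 lower in A6.2 than in a6.5, against 5.05% and 5.06%. At 16 cells 0 members passed between A5.1 and a5.3 by edgeR, against 0.151% of all genes, with 1 at an unadjusted p under 0.05 and 0 by DESeq2. The 6 of 46 members called between lineages at 32 cells and the 5 of 50 at 64 cells were thus close to the 10.1% and 10.7% of all genes.

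KH.C7.140 appeared in both lineages between 32 and 64 cells. The A6.2 embryos held 0 reads of it, and the A7.4 embryos 403, 0.0829, 423 and 599 CPM. Embryo 3, low in both of its A7.4 cells, was the exception, and with it the A7.4 mean was at least 7022-fold higher than the limit of 3 reads over the A6.2 group. The step had an adjusted p of 1.81e-06 by edgeR and kept its call when each embryo was left out in turn. In a6.5 the embryos held 0, 4.16, 0, 0.110 and 4.02 CPM, and in a7.10 between 49.6 and 154 CPM with a median of 59.4 over 8 embryos. The a-line groups did not overlap and the log2 fold change was 5.26 ± 0.97 with an adjusted p of 0.000243 by edgeR. All a7.10 embryos lay under 3 of the 4 A7.4 embryos, and the comparison of A7.4 with a7.10 had an adjusted p of 0.0521.

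At 64 cells KH.C7.140 was also high in the notochord branch of the A line. The notochord cell A7.3 held 589, 646, 467 and 624 CPM, and the endoderm cell A7.2 held 22.3, 22.6, 16.5 and 27.4 CPM. From A7.3 to A8.5 it was then lower by 3.73 ± 0.81 on the log2 scale, with an adjusted p of 0.00613 by edgeR, while A8.7 held the values given above. In that step the call was lost when the A6.1 library of embryo 5 was put back, at an adjusted p of 0.154. Every a7.10 embryo was above every a7.11 embryo, a7.11 ranging from 0 to 17.9 CPM, with an adjusted p of 0.0631 by edgeR and of 0.00152 by DESeq2. From a7.11 to a8.22 KH.C7.140 rose by 3.65 ± 0.88 with an adjusted p of 0.00350, and in a9.43+a9.44 it was at or under 9.39 CPM. From a7.10 to a8.19 it rose by 2.33 ± 0.76 with an adjusted p of 0.0258, a call lost without embryo 1 or 3 of a8.19, where the adjusted p reached 0.0822, and with DESeq2, at 0.162.

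KH.C14.33 was present earlier, at the 32-cell stage, in A6.2, A6.1 and a6.5. In the a line its mean over libraries at that stage was 9.008 CPM in a6.5 and 1.768 CPM in a6.6. Its A6.2 embryos ranged from 3.80 to 44.6 CPM with a median of 25.9, and A5.1 from 0.236 to 1.72 CPM. The step from A5.1 to A6.2 was 4.45 ± 0.77 on the log2 scale with an adjusted p of 0.000164 by edgeR. At 64 cells it measured 104, 71.3, 75.8 and 57.8 CPM in A7.3, then 36.2, 44.9, 59.5 and 54.5 CPM in A7.2 and 28.1, 32.4, 35.9 and 39.8 CPM in A7.4. The A7.3 embryos lay above the A7.4 embryos, but the log2 fold change of A7.4 against A7.3, −1.17 ± 0.83, had an adjusted p of 1. Over the 8 a7.10 embryos at 64 cells KH.C14.33 had a median of 10.6 CPM and a range from 0 to 25.8 CPM, against a single a7.11 embryo above 0, at 0.661 CPM. The log2 fold change of a7.10 against a7.11 was 6.51 ± 0.96 with an adjusted p of 0.000324 by edgeR. With the embryo as a block the gene was removed by the filter on low counts.

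The fold changes of KH.C14.33 at 64 cells therefore had opposite signs in the lineages. The difference between A7.4 against A7.3 and a7.10 against a7.11 was −7.69 ± 1.31 on the log2 scale with an adjusted p of 0.00376 by edgeR, a test that 0.206% of all genes passed. It was lost without A-line embryo 4, at an adjusted p of 0.0611. By 112 cells the order in the A line had turned, as the A8.7 and A8.5 values above show. From a7.10 to a8.19 KH.C14.33 rose by 3.93 ± 1.06 on the log2 scale with an adjusted p of 0.00690 by edgeR, and from a7.11 to a8.22 by 5.51 ± 1.46 with 0.00731.

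KH.S816.1 was high in the A line before it was high in the a line. In A6.2 it measured 1.02, 0.431, 48.6, 35.5, 30.7 and 38.6 CPM, so 4 embryos were high and 2 were near 0, and in A5.1 the only embryo with reads held 1.10 CPM. The step from A5.1 to A6.2 was 6.41 ± 1.25 on the log2 scale with an adjusted p of 0.000801 by edgeR. At 64 cells A7.4 held 109, 0.414, 146 and 155 CPM and A7.3 held 175, 108, 177 and 155 CPM, whereas the endoderm cells A6.1 and A7.2 held at most 1.45 and 2.76 CPM. The A-line neural and notochord cells thus shared this RNA, apart from A7.4 of embryo 3. Against A6.1, A6.2 had a log2 fold change of 6.09 ± 1.63 with an adjusted p of 0.906, and of 0.0385 with the embryo as a block. On the a-line side, 7 of 8 a7.10 embryos were at or under 1.47 CPM and the other held 29.1 CPM, and the lowest a8.19 embryo held 152 CPM. The step from a7.10 to a8.19 was 5.57 ± 1.49 with an adjusted p of 0.00757 by edgeR.

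**Figure D3:**
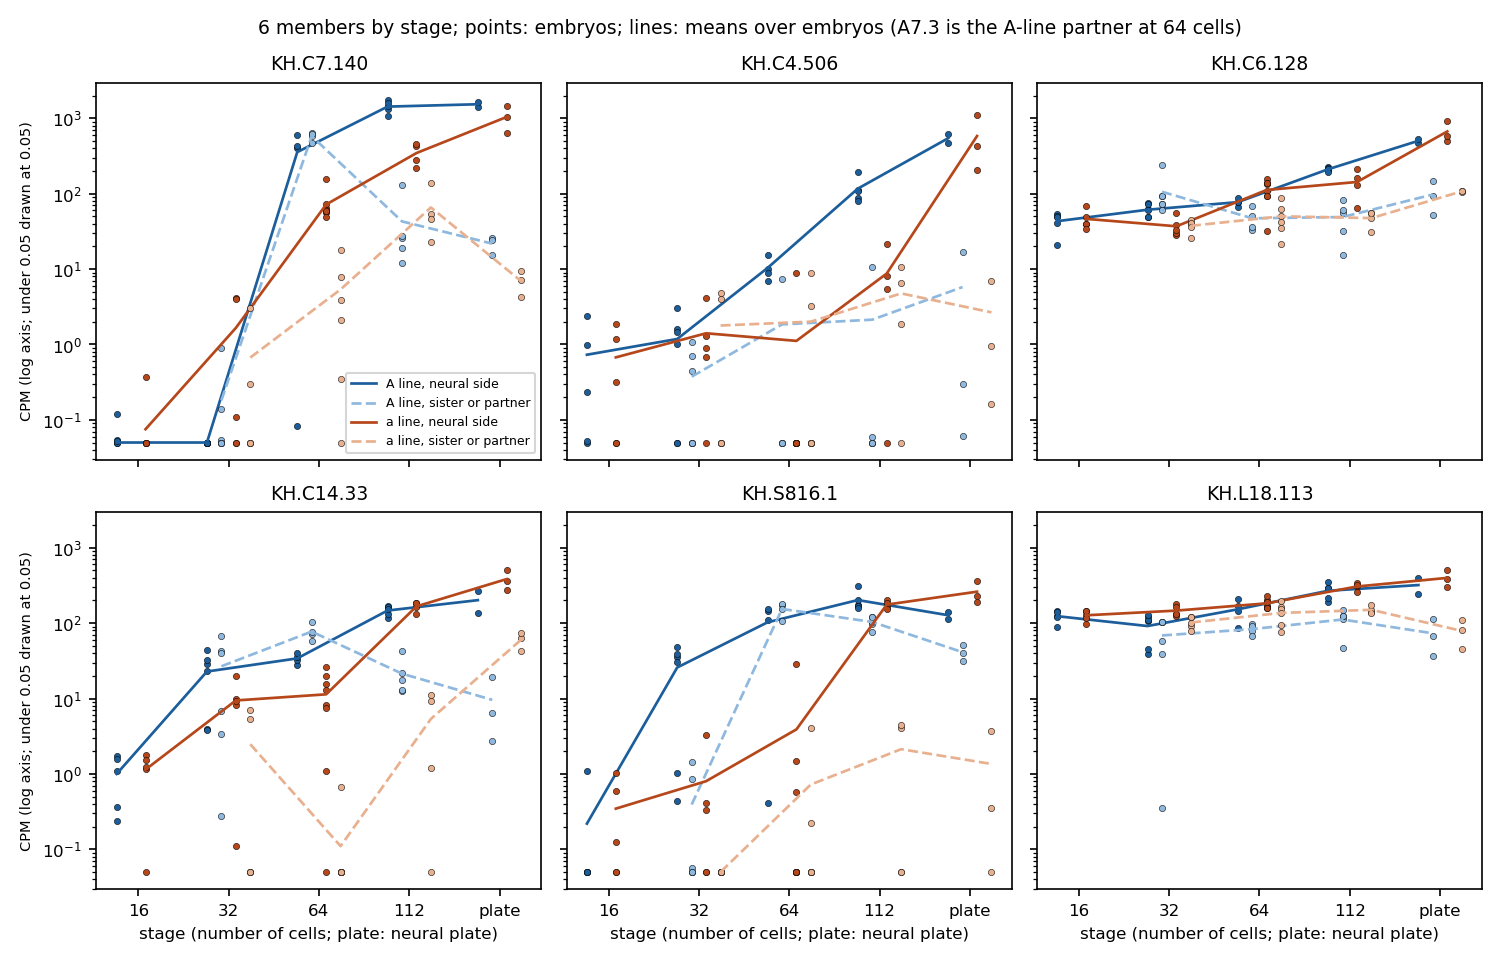
CPM on a log axis by stage for 6 members chosen after their values were seen, with embryos as points and means over embryos as lines. Lines are solid for the neural branch and dashed for the sister or partner cells of each stage in each lineage. In the A line the partner cells are not a line of descent: A6.1 belongs to the endoderm branch, and A7.3 and A8.5 to the notochord branch. KH.C7.140 falls away in A8.5 after a high value in A7.3, KH.S816.1 is high in the A line from 32 cells and in the a line from 112 cells, and KH.C6.128 and KH.L18.113 start from a level already present at 16 cells.

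Apart from these genes the early stages separated few members. At 64 cells 2 of 50 members were higher in a7.10 than in a7.11, against 0.215% of all genes, with 5 called by DESeq2 and 0 with the embryo block. That share is of the main edgeR fit, and none is given for DESeq2 or the block. The other member beside KH.C14.33 was KH.S800.2. KH.S800.2 ranged from 19.1 to 73.4 CPM with a median of 43.3 in a7.10 and from 0.111 to 9.03 CPM with a median of 2.28 in a7.11. Those groups did not overlap, with a log2 fold change of 3.79 ± 0.77 and an adjusted p of 0.0170 by edgeR, which was lost without a-line embryo 4, 6 or 8 and with the embryo block (0.107). KH.S800.2 was at or under 0.540 CPM in a5.3 and between 3.67 and 21.98 CPM in a6.5, a step of 7.28 ± 1.11 on the log2 scale with an adjusted p of 6.01e-05. In the A line its A7.2 embryos, at 33.2, 21.8, 48.2 and 10.99 CPM, overlapped with the A7.4 embryos, at 0.460, 28.8, 9.25 and 4.88 CPM.

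In the A line at 64 cells 0 of 50 members passed by edgeR for A7.4 against A7.3, against 0.00859% of all genes, and 0 for A7.4 against A7.2, against 0.0172%. At an unadjusted p under 0.05 there were 4 and 4 members, and DESeq2 called 0 and 0. At 32 cells 0 of 46 members passed for A6.2 against A6.1, where 0 genes of the table did, and 0 for a6.5 against a6.6, where 0.00891% did. The counts at an unadjusted p under 0.05 were 2 and 3, and DESeq2 called 0 and 1. With the embryo as a block each of these 32-cell comparisons called 1 member, KH.S816.1 in the A line and KH.C11.529, lower in a6.5, in the a line (adjusted p = 0.0364).

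Between lineages at 64 cells, the largest log2 fold changes among members called were those of KH.C8.775 and KH.C8.424 upward and of KH.C9.268 downward. KH.C8.775 averaged 7.70 ± 4.50 CPM (SD, n = 4 embryos) in A7.4 and had no read in the 8 a7.10 embryos, which made A7.4 at least 164-fold higher than the limit of 3 reads over the a7.10 group, with an adjusted p of 0.00441 by edgeR. KH.C8.424 averaged 10.2 ± 7.67 CPM in A7.4, with 0.201 ± 0.377 CPM in a7.10 and an adjusted p of 0.0468 that was lost without 9 of the 12 embryos in turn and with no filter on low counts (0.0508). At 32 cells KH.C11.447 and KH.S816.1 were higher in A6.2 than in a6.5 and KH.C11.529 was lower. KH.C11.529 measured 10.2 ± 4.08 CPM (SD, n = 6 embryos) in A6.2 and 19.1 ± 4.91 CPM (n = 5) in a6.5, with an adjusted p of 0.0407 by edgeR. Those 3 calls at 32 cells were each lost without at least 7 of the embryos in turn, and with the A6.1 library of embryo 5 put back, where the adjusted p lay between 0.156 and 0.496. With no filter on low counts those of KH.S816.1 and KH.C11.529 were also lost, at 0.0558 and 0.061.

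The stage at which members first reached 5 CPM and stayed at or above it in the neural branch was used to group them. In 10 members this was the 16-cell stage in both lineages, and KH.C6.128 and KH.C4.90 had the highest neural plate means among these 10. KH.C6.128 held 43.2 ± 13.3 CPM (SD, n = 5) in A5.1, with 46.4 ± 13.9 CPM (n = 5) in a5.3. KH.C4.90 held 124 ± 9.78 CPM in A5.1, with 142 ± 29.2 CPM in a5.3, and reached 386 ± 184 CPM (n = 2) in A9.13+A9.14, with 417 ± 78.8 CPM (n = 3) in a9.37+a9.38. KH.C6.128 and KH.C4.90 were thus already present in the 16-cell embryo at a lower level than at the plate. This does not hold for all 10: KH.L165.6 averaged 18.72 CPM in A5.1 and 8.988 CPM in A9.13+A9.14. Means of at least 5 CPM in both A5.1 and a5.3 were found for 19 members, against 56.1% of all genes with a count, and means under 1 CPM in both for 21, against 31.1%.

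In 11 members the neural plate was the stage of onset in both lineages, and KH.S1273.1 and KH.C11.138 led this group. KH.S1273.1 measured 43.3 and 63.0 CPM in A9.13+A9.14, with 29.1, 76.6 and 6.58 CPM in a9.37+a9.38, against 12.7, 3.42 and 58.7 CPM in A9.9+A9.10 and at most 2.86 CPM in a9.43+a9.44. KH.C11.138 measured 50.5 and 4.32 CPM in A9.13+A9.14, with 1.98, 102 and 0 CPM in a9.37+a9.38. KH.C11.138 thus rested on few embryos. KH.S1273.1 had a count in all 12 neural libraries, but its neural embryos overlapped with those of A9.9+A9.10. Of the 38 members with an onset in both lineages, 23 shared the stage, 11 were earlier in the A line and 4 earlier in the a line. KH.C4.506 and KH.S816.1 had the highest neural plate means among the 11, and KH.S800.2 and KH.S461.8 among the 4. The same split was not computed over all genes, and a dip under 5 CPM at 1 stage can make it. KH.C3.565 counted as earlier in the A line, though it averaged 46.56, 39.85 and 35.41 CPM in a5.3, a6.5 and a7.10 before 1.205 CPM in a8.19. No lead of a lineage is therefore read from the split. In 20 members neither lineage held 5 CPM at the plate.

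**Figure D4:**
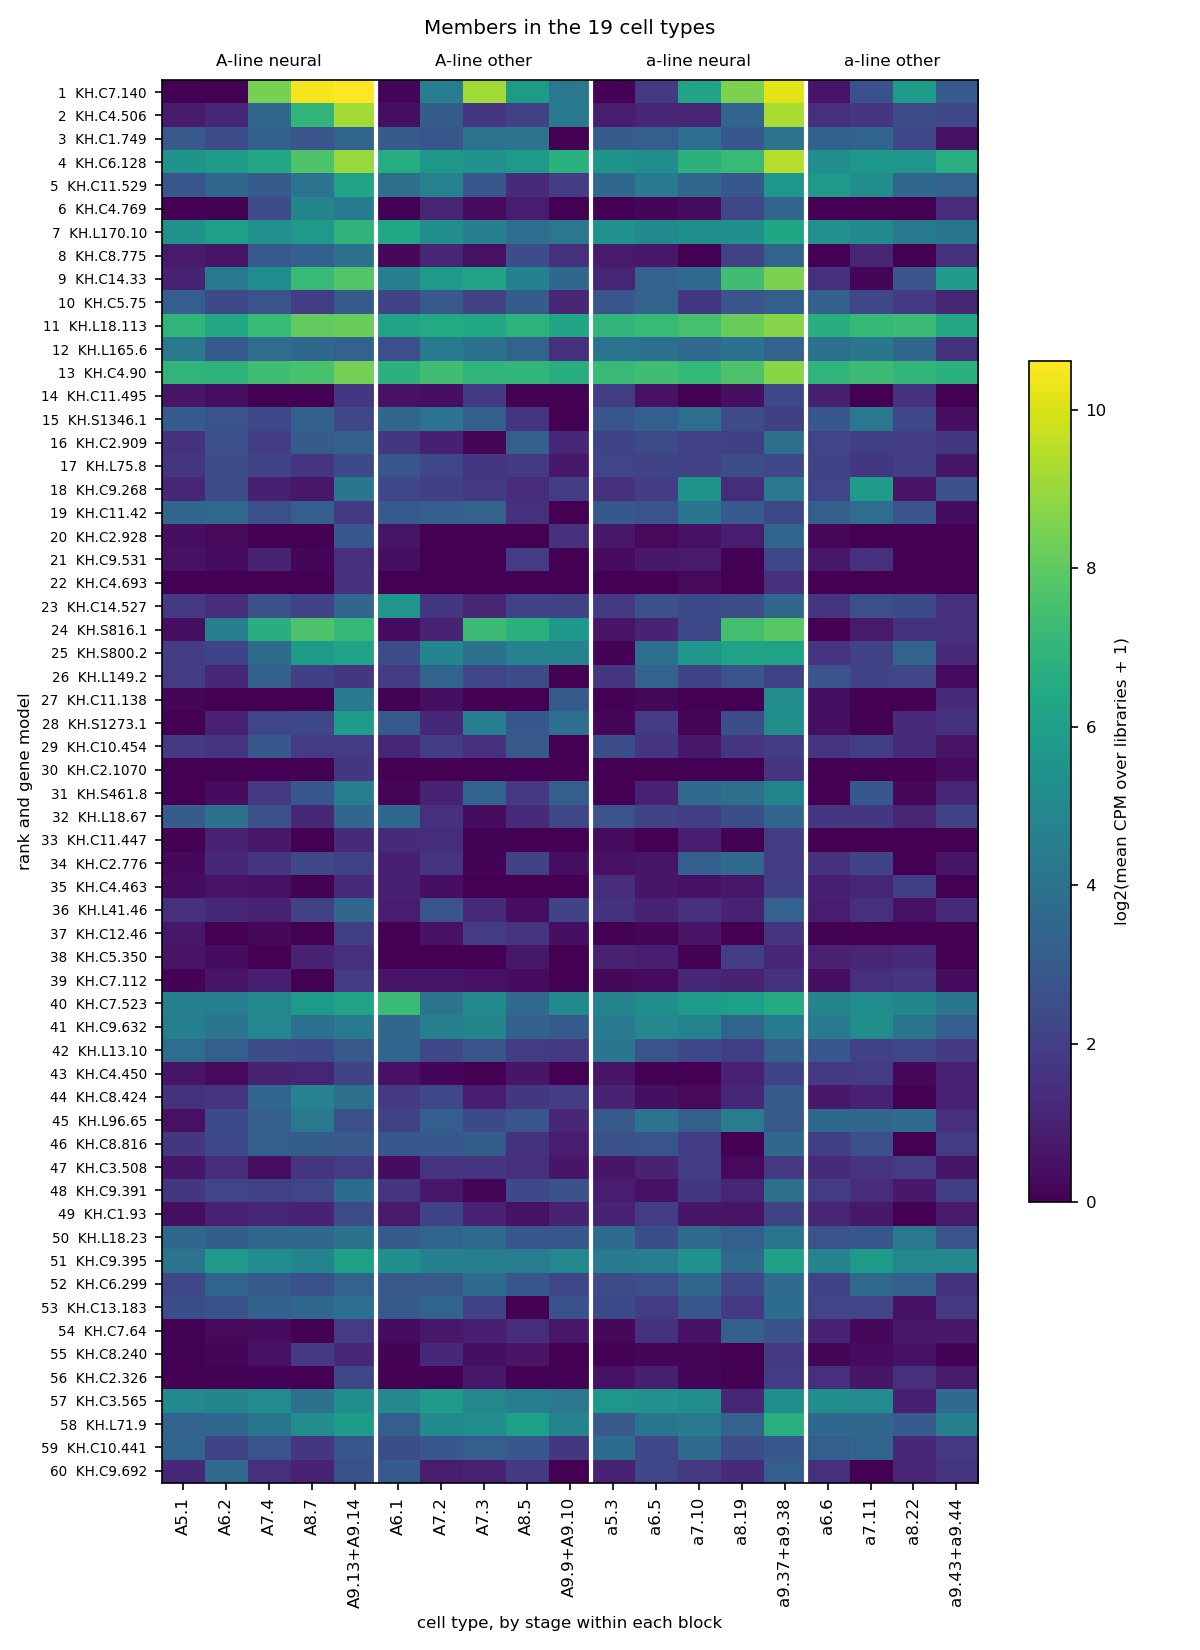
Log2 of the mean CPM over libraries plus 1 for the 60 members, in rank order from top to bottom, in the 19 cell types, grouped by lineage and branch and ordered by stage within each block. KH.C7.140, KH.C4.506, KH.C6.128, KH.L18.113 and KH.C4.90 are the brightest rows at the plate, most lower-ranked rows stay dark, and the A6.1 column holds high values of KH.C7.523 and KH.C14.527 that come from the library of embryo 5.

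Steps along the neural branch called 1 to 14 members each. In the A line 4 of 55 members tested rose from A5.1 to A6.2 (6.39% of all genes rose), 2 from A6.2 to A7.4 (1.72%) and 1 from A7.4 to A8.7 (0.999%), and 0 fell by edgeR (4.53%, 1.22% and 1.93%). DESeq2 also called KH.C11.447 lower from A7.4 to A8.7, at an adjusted p of 5.84e-08 and a fitted log2 fold change of -20.23. Its mean there went from 0.6374 CPM to 0, near the floor, and by edgeR the adjusted p was 0.144. Of 52 members tested in the a line, 2 rose from a5.3 to a6.5 (1.31%), 5 changed from a6.5 to a7.10 (16.0% of all genes changed) and 14 changed from a7.10 to a8.19 (21.2%). In the partner branches 1 rose and 2 fell from A7.3 to A8.5 (2.26% and 3.87%), and 4 rose and 7 fell from a7.11 to a8.22 (9.82% and 9.16%). Steps that meet at a stage share that stage's embryos.

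KH.C6.128 rose in the neural branch of both lineages. From A7.4, with 67.6, 77.0, 78.0 and 86.6 CPM, to A8.7 it rose by 1.50 ± 0.30 on the log2 scale with an adjusted p of 0.00355 by edgeR, which was lost when the A6.1 library of embryo 5 was put back, at 0.681. In the a line a rise of KH.C6.128 was called a stage earlier, from between 28.0 and 55.4 CPM in a6.5 to between 32.2 and 158 CPM in a7.10, by 1.58 ± 0.31 with an adjusted p of 0.000474. KH.C4.769 rose from 1 read over the 6 A6.2 embryos to 6.94 ± 10.5 CPM in A7.4, with an adjusted p of 0.0253 that was lost without 6 of the 10 embryos in turn and with the A6.1 library of embryo 5 (0.158). KH.S461.8 rose from 0 reads in a5.3 to 1.15 ± 1.68 CPM in a6.5, with an adjusted p of 0.0453 that was lost without 7 of the 10 embryos in turn and with no filter on low counts (0.0526). KH.S1273.1 was the other member with a large fitted fold from A5.1 to A6.2, from 1 read to 1.41 ± 1.75 CPM, and its call, at an adjusted p of 0.0302, was lost without 6 of 11 embryos in turn and with that library (0.38).

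From a7.10 to a8.19 the members with the largest fitted rises were KH.C8.775, from 0 reads to 2.68 ± 3.53 CPM, and KH.C5.350, from 2 reads to 2.44 ± 4.88 CPM. Both calls were lost with DESeq2, at adjusted p-values of 0.0505 and 0.0689, and 2 of the 4 a8.19 embryos held all CPM of KH.C8.775. All CPM of KH.C5.350 in a8.19 came from embryo 2, without which its fitted log2 fold change was −1.87. The largest falls were those of KH.C8.816 and KH.C3.565. KH.C3.565 held between 7.63 and 64.0 CPM with a median of 33.6 in a7.10, and 0, 3.59, 0 and 0 CPM in a8.19, a fall of 5.20 ± 1.01 on the log2 scale with an adjusted p of 0.000273. It also fell on the epidermal side, by 5.37 ± 1.04 from a7.11 to a8.22, with an adjusted p of 0.000325. At the plate KH.C3.565 was back at 32.1, 36.5 and 88.9 CPM in a9.37+a9.38 and at 12.9, 14.8 and 16.2 CPM in a9.43+a9.44.

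KH.C9.268 rose and then fell in the a line. It measured between 1.49 and 5.01 CPM in a6.5, between 24.6 and 66.7 CPM with a median of 40.6 in a7.10, and 0, 1.54, 4.35 and 0 CPM in a8.19. The rise into a7.10 was 3.79 ± 0.86 and the fall out of it 4.78 ± 1.01 on the log2 scale, with adjusted p-values of 0.00209 and 0.000682 by edgeR. The a7.11 embryos held between 20.7 and 81.9 CPM and the a8.22 embryos at most 0.855 CPM, a fall with an adjusted p of 3.83e-05 by edgeR. In A7.4, KH.C9.268 was at or under 1.40 CPM, and between A7.4 and a7.10 its log2 fold change was −5.50 ± 0.98 with an adjusted p of 0.000539.

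In the partner branches, KH.C11.495 and KH.C14.33 had the largest fitted rises from a7.11 to a8.22 and KH.C8.816 and KH.C2.776 the largest falls. The call of KH.C11.495 was lost with no filter on low counts, at an adjusted p of 0.0521. Its reads in a8.22 all came from embryo 2, and those of KH.C8.816 and KH.C2.776 in a7.11 mostly from a single embryo each. KH.C11.529, present in a7.11 at 37.0 ± 19.2 CPM (SD, n = 6), fell by 1.82 ± 0.51 to 10.0 ± 4.86 CPM (n = 4) in a8.22, with an adjusted p of 0.0116 by edgeR. From A7.3 to A8.5, KH.C13.183 fell from 2.90 ± 3.70 CPM to 1 read over 5 embryos with an adjusted p of 0.00701, and KH.C2.909 rose from 0.122 ± 0.244 to 9.39 ± 9.66 CPM with 0.0269. Those calls were lost without 1 embryo for KH.C13.183, at an adjusted p of 0.0514, and without 4 of 9 in turn or with the A6.1 library of embryo 5 (0.0669) for KH.C2.909.

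The last step, from 112 cells to the plate, is a description because the ranking used its end point. With 1 CPM added, the mean of the neural cells rose at least 2-fold in both lineages for 22 members, in the A line for 30 and in the a line for 37. The mean of the partner fell at least 2-fold in both lineages for 8 members, in the A line for 20 and in the a line for 16. No member showed both things in both lineages. Only 3 members showed neither a neural rise nor a partner fall in either lineage. KH.C7.140 changed little on the A-line neural side, by 0.13 on the log2 scale of these means, rose by 1.65 on the a-line neural side, and fell by 1.57 and 2.84 in the partners. KH.C4.506 rose by 2.13 on the A-line neural side and by 5.77 on the a-line neural side.

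Within the plate, each library belonged to column 1 or column 2 of its row, and the ranking averaged over both. The column fits used these same libraries and took cells of 2 or 3 embryos as units, so they are a description and say nothing on embryos. In libraries blocked by embryo, 0 of 60 members passed by edgeR for column 2 against column 1 in A9.13+A9.14, against 0% of 12098 genes, and 0 in a9.37+a9.38. At an unadjusted p under 0.05 there were 2 members in each, and DESeq2 was not run on columns. KH.L18.113 was in both pairs, with log2 fold changes of 0.67 ± 0.29 and 1.00 ± 0.32 toward column 2, and it was singled out after its values were seen. KH.C7.140 measured 1629, 2010 and 1620 CPM in column 2 and 1120, 1369 and 1666 CPM in column 1 of A9.13+A9.14. The columns of KH.C7.140 overlapped, as did those of the a line.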

How the data were processed

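RNA was measured in 133 single-cell libraries, made with SMARTer cDNA and Nextera XT kits per the labels' protocols. The deposited values are raw counts per KH gene model. STAR version 2.7.10a is named in the submitters' processing notes; the counting step, annotation and genome build were not given in the sources used here. The kits do not mark strand, so overlapping and antisense genes cannot be told apart, and near-identical gene models may share reads. All 133 columns were matched to a sample, with 0 left over, and no row lacked a gene.

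CPM used column totals. Tests used counts summed per embryo and cell type in edgeR 4.0.16 (R 4.3.3): TMM scaling, filterByExpr by group, robust quasi-likelihood fits over all cell types of a stage or all stages of a lineage, Benjamini-Hochberg adjustment over all genes tested and a threshold of 0.05. Alternatives were RLE scaling, no filter, DESeq2 1.42.0, the embryo as a block, and leaving out each embryo. The edgeR and DESeq2 scripts were tested on simulated data. Folds against 0 reads used a limit of 3 reads over the group, which covers counting error only.

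The set and the lists were chosen with earlier results of these data known, and marker lists by gene symbol could not be applied to KH identifiers. Named members were ranks 1 to 10, ranks 58 to 60 with the next 3 genes, the 2 largest fold changes per direction among calls of each comparison, and the 2 highest per onset group; the 6 members of the stage plot and others noted were chosen later.

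The labels give the embryo of each cell, which pairs cells within a lineage. Deviations from group means of same-embryo cells correlated at a mean of 0.284 to 0.598 for A6.2 with A6.1, a6.5 with a6.6, A7.4 with A7.3 or A7.2 and A5.1 with a5.3, and at 0.0796, 0.115 and 0.0156 for a7.10 with a7.11, A8.7 with A8.5 and a8.19 with a8.22, over genes with a mean of at least 10 CPM. Between lineages after 16 cells, equal numbers correlated at 0.0283, −0.0213 and 0.0160 and were not treated as pairs.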

Additional observations from a re-analysis of the deposited data

Results flagged for a closer look

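Of 46 pairs of a named member and an embryo group, 9 held an embryo far from the rest of its group. The nominal rate of 5% cannot serve as a chance rate here, because some groups held reads in a single embryo. Named members were also partly picked for large fold changes. No excess over chance is therefore read from the 9 pairs. KH.C7.140 in A8.5 was at 130 CPM in embryo 7 against 11.89 to 27.71 in the others, and in a7.10 at 154.5 CPM in embryo 8 against 49.58 to 73.63. KH.C11.529 in A6.2 was at 18.02 CPM in embryo 2 against 6.374 to 9.828, and KH.C2.909 in A8.5 was at 26.55 CPM in embryo 3 against 4.182 to 6.951. KH.C8.816 was at 16.31 CPM in embryo 3 of a7.10, where the others held up to 5.521, and at 23.67 CPM in embryo 7 of a7.11, where the others held up to 3.785. KH.C2.776 in a7.11 was at 14.81 CPM in embryo 4 against at most 2.552. KH.C5.350 in a8.19 and KH.C11.495 in a8.22 were each present in embryo 2 alone, at 9.753 and 6.898 CPM.

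The neural enrichment of KH.C14.33 at 64 cells and of KH.S816.1 at 112 cells differed between the lineages by edgeR's test of the difference itself, by −7.69 and −5.42 on the log2 scale, A line minus a line, with adjusted p-values of 0.00376 and 0.00905.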

How the results depend on the processing

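RLE scaling moved none of 23 counts of members, and moved the median of all genes by under 0.1 log2. With DESeq2 the counts became 1 for a6.5 against a6.6, 5 for a7.10 against a7.11, 3 for the lineage difference at 64 cells, 7 for A8.7 against A8.5, 9 for a8.19 against a8.22, 2 for A8.7 against a8.19, 3 for the lineage difference at 112 cells, 3 for the step A7.4 to A8.7 and 7 for A7.3 to A8.5. With no filter on low counts, 1 member was called from a5.3 to a6.5. With the embryo as a block, 1 was called for A6.2 against A6.1, 1 for a6.5 against a6.6, 0 for a7.10 against a7.11 and 0 for a8.19 against a8.22; the block moved no other count within a lineage or at 16 cells by over 1.5 times. Between lineages equal numbers are not known to be the same embryo. Such a replicate block, chosen after seeing the data, left 1 call for A6.2 against a6.5, 1 for A7.4 against a7.10 and 1 for A8.7 against a8.19, with fewer embryos in the fit. With the A6.1 library of embryo 5, 7 members were called for A6.2 against A6.1, 6 of them lower in A6.2, and 1 for A6.2 against a6.5; for the A-line steps, chosen after seeing the data, it gave 2, 1, 0 and 1 calls for A5.1 to A6.2, A6.2 to A7.4, A7.4 to A8.7 and A7.3 to A8.5. The list kept 38 members with means over embryos and 37 with 5 CPM added. Shares of all genes were taken from the main edgeR fits alone, so the DESeq2 and other alternative counts have no background beside them. The causes were not tested.

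Leaving out each embryo in turn gave 27 to 47 of the 60 list members (34, 27 and 47 for the A-line embryos, 27, 33 and 43 for the a-line embryos). Calls ran from 1 to 4 for A6.2 against a6.5, 3 to 6 for A7.4 against a7.10, 2 to 4 for A8.7 against A8.5, 0 to 1 for A8.7 against a8.19 (1 without A-line embryo 7), 1 to 3 for a7.10 against a7.11, 1 to 2 for a8.19 against a8.22, 0 to 1 for the lineage difference at 64 cells and 1 to 3 at 112 cells. Along the steps they ran from 2 to 5 for A5.1 to A6.2, 1 to 2 for A6.2 to A7.4, 1 to 2 for A7.4 to A8.7, 1 to 5 for A7.3 to A8.5, 1 to 2 for a5.3 to a6.5, 4 to 6 for a6.5 to a7.10, 10 to 14 for a7.10 to a8.19 and 6 to 10 for a7.11 to a8.22. The comparisons with 0 calls at 16, 32 and 64 cells stayed at 0 to 0. Of 617 alternatives for 45 results on single members, 477 kept the call and direction, 139 lost the call and 1 reversed, the step a7.10 to a8.19 of KH.C5.350, at −1.87 without embryo 2 of the 112-cell stage and up to 6.57 without others. With 2 to 8 embryos a group and counts near 0 in the lower ranks, a member that missed the threshold is not shown to be equal.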

Other observations

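The A7.4 cells of embryo 3 held 0 and 0.169 CPM of KH.C7.140 and 0.814 and 0 CPM of KH.S816.1, while the other A7.4 embryos held at least 403 and 109 CPM. In the same embryo KH.C6.128, at 77.0 CPM, and KH.C14.33, at 32.4 CPM, were within the range of the other A7.4 embryos. KH.S800.2 was higher in A7.4 of this embryo than in any other A7.4 embryo, as its values above show.

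At 32 cells KH.C14.33 was low in embryos 1 and 2 of the A line in both of their cell types. KH.C14.33 measured 3.96 and 3.80 CPM in A6.2 and 0.273 and 3.39 CPM in A6.1 of these embryos, against at least 23.3 CPM in the other A6.2 embryos and 39.7 to 67.7 CPM in A6.1 of embryos 3, 4 and 6. KH.L18.113 measured 39.4 and 45.7 CPM in A6.2 and 39.0 and 58.5 CPM in A6.1 of embryos 1 and 2. Its mean was 82.58 CPM over all A6.2 libraries and 76.38 CPM over the A6.1 libraries without embryo 5. Both means include embryos 1 and 2. KH.S816.1 was also near 0 in A6.2 of embryos 1 and 2, as its values above show. Not every member was low there: KH.C11.529 in A6.2 was at 18.02 CPM in embryo 2 against 6.374 to 9.828 in the others. KH.C14.33, KH.L18.113 and KH.S816.1 were singled out after their values were seen, and no explanation was tested.

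The A6.1 library of embryo 5, left out of the fits, held 1180 CPM of KH.C7.523.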
